A study of Xenopus laevis with 8 samples.

Results

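The genes described are the Hox genes of Xenopus laevis, measured in animal caps on Affymetrix arrays. A probe set counted as a Hox gene when its single gene symbol in the platform annotation began with hox, a cluster letter from a to d and a paralog number, and the brightest probe set stood for each symbol. This gave 25 Hox genes among 11303 named genes, with 7 in cluster a, 7 in cluster b, 5 in cluster c and 6 in cluster d. They covered 12 paralog groups, from 2 to 13, and a gene of paralog group 1 was not analysed here. A suffix of .L or .S tells whether a copy lies on the long or the short subgenome of this species, and close copies may cross-hybridise.

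Animal caps are pieces of the blastula roof that form epidermis when left alone. The 4 groups had 2 arrays each. They were uninjected caps, caps injected with Chordin mRNA, caps injected with Chordin and Wnt3a mRNAs, and caps injected with both mRNAs and Lrig3MO, a morpholino against lrig3. Injections went into the animal pole at the 2-cell stage. The caps were removed at stage 9 and kept in culture until stage 15. All injected groups therefore shared chordin, a secreted antagonist of bone morphogenetic proteins, and the morpholino was given only on top of chordin and wnt3a. The labels do not name a control morpholino group or caps injected with a control mRNA. Nor do they give doses or how many caps were pooled. Lrig3 is a membrane protein whose outer part holds leucine-rich repeats and immunoglobulin-like domains.

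Hox genes encode homeodomain transcription factors and lie in clusters whose order along the chromosome matches the order of their expression along the body axis. Genes with low paralog numbers act in the hindbrain, those with middle numbers in the posterior hindbrain and trunk, and those with high numbers in the posterior trunk and tail. In vertebrate embryos Wnt, fibroblast growth factor and retinoic acid signals, and Cdx transcription factors downstream of them, activate Hox genes of progressively more posterior character. Hox proteins bind DNA together with Meis and Pbx cofactors.

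The values are deposited signal intensities, 1 per probe set and array, and differences are given on the log2(signal + 5.22) scale. They understate the change of dim genes. A probe set was called changed when its limma p-value, adjusted by the Benjamini-Hochberg method over 22000 probe sets, was below 0.05. Of the 25 Hox genes 17 passed the filter on dim probe sets and were tested. The other 8 (hoxb5.S, hoxb7.L, hoxd8.L, hoxa9.S, hoxd9, hoxd11.L, hoxc12.L and hoxa13.S) were too dim on all but at most 1 array. A Hox gene that was high in 1 group could pass the filter through that group alone, so counts among the 17 are descriptions. The background of each array was the highest signal of its 23 negative control probe sets, which lay between 19.5 and 30.8. In these bulk samples a lower signal from fewer expressing cells and one from less RNA per cell cannot be told apart.

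Arrays of the same group correlated at 0.929 to 0.967 and arrays of different groups at 0.739 to 0.925, across the 22000 tested probe sets on the log2 scale. Among marker lists, 15 of 17 anterior neural genes tested rose with chordin and 15 of 17 fell when wnt3a was added, while 7 of 16 epidermis genes fell and 1 rose with chordin. Of all tested probe sets 17.6% were called higher and 11.7% lower with chordin, and 2.74% lower when wnt3a was added. The signal of lrig3.S was 95.6 and 172 in uninjected caps, 3191 and 2158 with chordin, 741 and 756 with chordin and wnt3a, and 4787 and 3002 with the morpholino. A morpholino acts on translation or splicing, so this message level does not check the knockdown. For the gapdh control, the 3' probe set over the 5' probe set gave 1.26 to 1.41 where the replicate number was 1 and 1.61 to 1.76 where it was 2. This ratio, a sign of RNA integrity and labelling, moves with the replicate number, and its part in the differences between replicates described below was not tested.

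Hox genes were near background in most cases before wnt3a was added. In uninjected caps 6 and 9 of the 25 genes lay above the background of their array, and in chordin caps 3 and 3. Adding wnt3a took these numbers to 21 on the replicate 1 array and 12 on the replicate 2 array. With the morpholino as well they were 23 and 13. Of all probe sets 68.9% and 71.9% lay above background in uninjected caps, and 73.3% and 71.7% in chordin caps. The shares were 76.0% and 68.6% with wnt3a, and 70.5% and 73.3% with the morpholino as well. The genes hoxb5.S and hoxa13.S stayed at or below background on all 8 arrays.

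**Figure D1:**
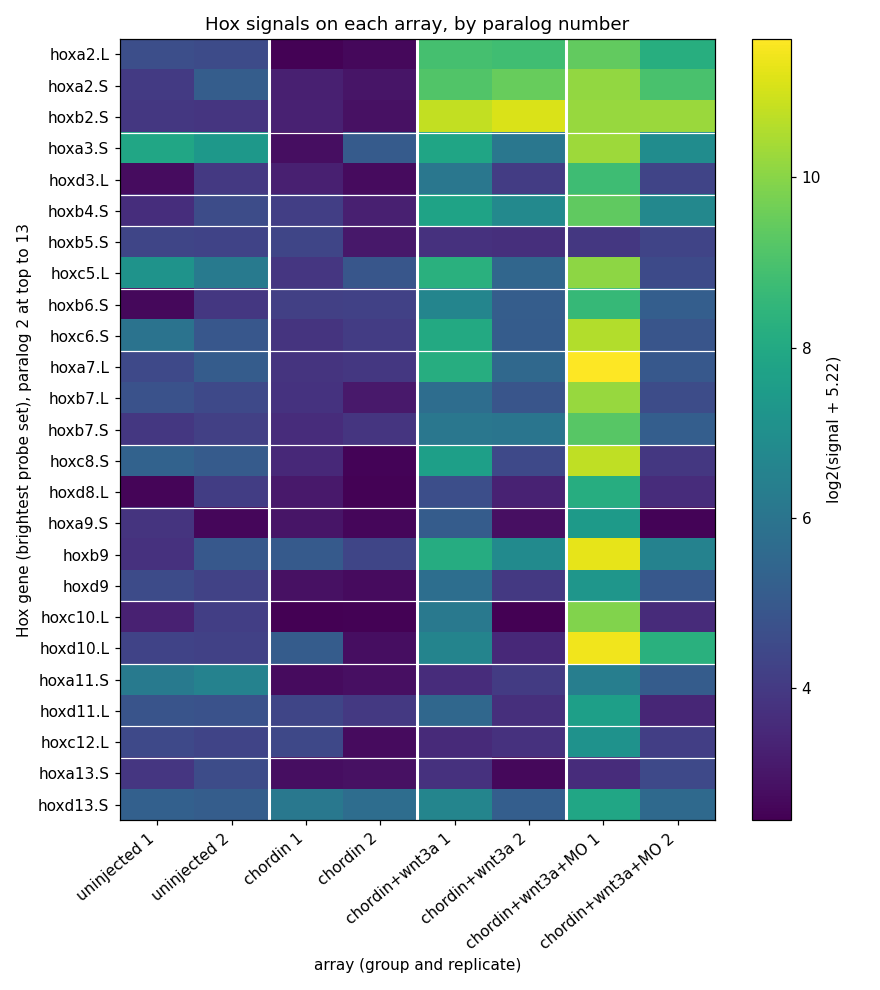
Colour shows log2(signal + 5.22) of each of the 25 Hox genes (lines, paralog 2 at the top to 13 at the bottom) on each of the 8 arrays (columns, group and replicate number), and is to be read along a line since probe sets differ in brightness. The 3 genes of paralog group 2 are bright on all 4 arrays with wnt3a, while most others are brightest on the replicate 1 array of the morpholino group.

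The first comparison sets chordin caps against uninjected caps, so an effect of injection itself cannot be told apart from that of chordin. Hoxa11.S was lower in chordin caps, and no tested Hox gene was called higher. Hoxa11 belongs to the posterior class and in the mouse patterns the limb. Its signals were 69.8 and 87.6 in uninjected caps and 1.40 and 1.84 in chordin caps. Both chordin values were at background and the groups did not overlap. The fall was at least 3.11-fold, with a fitted log2 change of -3.61 ± 0.54 (SE, n = 2 arrays per group, limma adjusted p = 0.00491). It rests on a single probe set. A further probe set of hoxa11.S, too dim to be tested, had 3.70 and 3.03 in uninjected caps and 3.61 and 28.2 in chordin caps. Both of its uninjected values were at background, so it could not show a fall.

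In chordin caps 2 of the 17 tested Hox genes were called lower and 0 higher, while 11.7% of all probe sets were called lower and 17.6% higher. At an unadjusted limma p below 0.05 the numbers were 5 lower and 0 higher, beside 18.0% and 24.6% of all tested probe sets. The other gene called lower was hoxa2.L, whose signals were 20.2 and 18.4 in uninjected caps and 0.512 and 0.987 in chordin caps. All 4 values were at background, so no fold is given for it (limma adjusted p = 0.0123). Its call was lost without either uninjected array or the replicate 1 chordin array. Without either morpholino array 4 Hox genes were called lower, with hoxa2.S and hoxa3.S among them. Of all 22000 probe sets 2780 were called lower without its replicate 1 array and 2778 without its replicate 2 array. All 4 values of hoxb2.S, 10.1 and 9.21 against 4.66 and 2.06, were also at background. It was not called without a block (limma adjusted p = 0.0560) and was called with the replicate number as a block (limma adjusted p = 0.0418).

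The signals of hoxa3.S, a posterior hindbrain and pharyngeal arch gene, were 230 and 159 in uninjected caps and 1.69 and 28.6 in chordin caps. The groups did not overlap, but the log2 change of -3.69 ± 1.24 did not pass (limma adjusted p = 0.0653). Those of hoxc5.L were 138 and 69.9 against 9.79 and 24.8, also without overlap. The log2 change of hoxc5.L, -2.29 ± 1.74, did not pass either (limma adjusted p = 0.359). A further probe set of hoxc5.L was lower too, at 80.2 and 29.1 against 15.5 and 9.39. Another, at background in both groups, showed no fall, at 9.04 and 4.65 against 12.1 and 11.3. Signals of 15 of the 25 Hox genes were lower in both chordin arrays than in both uninjected arrays and those of 2 were higher, while the shares of all probe sets were 28.5% and 31.6%. The median log2 change of the 25 genes was -0.82, and that of all 32539 probe sets was 0.02. In uninjected caps 6 and 9 of the 25 genes lay above background, and in chordin caps 3 and 3. The count of 15 and the Hox median therefore rest largely on signals below background. Scaling to the poly-A spike-in controls moved the median of the 22000 tested probe sets in this comparison from 0.09 to 0.78.

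The second comparison asks what wnt3a added to chordin. The genes of paralog group 2 rose from background, each by more than an order of magnitude, on both arrays. No other Hox gene was called. Of 23 neural crest genes tested 17 were called higher and 0 lower when wnt3a was added. Of 13 genes tested from a list of hindbrain segment regulators 5 were called higher and 3 lower (nkx6-2.L, pax2.L and en1.L). The shares of all probe sets were 3.08% and 2.74%. The hindbrain segment regulator egr2.L was at background with wnt3a, at 3.48 and 2.10. Whether it stayed low or its probe set does not detect it cannot be told. Which cells carried the group 2 signals was not tested. The injected message itself was read by wnt3a.S, whose signals were 2.24 and 0.498 with chordin and 10956 and 18771 with chordin and wnt3a. It was at 27548 and 25480 with the morpholino as well, above both arrays without it. The part of this difference in the third comparison was not tested. The chordin probe set chrd.1.S had 1.66 and 1.34 in uninjected caps and 468 and 771 with chordin. It had 100 and 291 with chordin and wnt3a, and 156 and 159 with the morpholino as well, below both chordin arrays. Whether it read the injected or the endogenous message cannot be told, and the part of its differences was not tested.

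Hoxb2 acts in the segments of the middle hindbrain and in the facial motor neurons formed there. The signals of hoxb2.S were 4.66 and 2.06 in chordin caps and 1744 and 2223 with wnt3a. Both wnt3a values lay far above background and both chordin values below it. The gene rose at least 73.5-fold, with a log2 change of 7.86 ± 0.26 (SE, n = 2 arrays per group, limma adjusted p = 3.60e-05).

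Hoxa2 gives the second pharyngeal arch its identity and acts in the anterior hindbrain, and both of its copies were measured. The signals of hoxa2.L were 0.512 and 0.987 with chordin and 477 and 447 with wnt3a, a rise of at least 17.4-fold (log2 change 6.29 ± 0.41, limma adjusted p = 5.07e-04). Those of hoxa2.S were 4.39 and 2.59 with chordin and 554 and 708 with wnt3a, a rise of at least 23.5-fold (log2 change 6.19 ± 0.50, limma adjusted p = 0.00109). For both copies the replicates lay close together and the groups were far apart.

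Of the 17 tested Hox genes these 3 were called higher and 0 lower, where 3.08% of all probe sets were called higher and 2.74% lower. At an unadjusted limma p below 0.05 there were 5 higher, the other two being hoxa3.S and hoxb4.S, and 0 lower, beside 8.40% and 9.16% of all tested probe sets. Hoxb4, a retinoic acid responsive gene of the posterior hindbrain, had signals of 12.4 and 4.44 with chordin and 214 and 105 with wnt3a, read by hoxb4.S. Its log2 change of 3.58 ± 0.88 did not pass with all 8 arrays (limma adjusted p = 0.0696). It passed without the replicate 1 array of the morpholino group (limma adjusted p = 0.0197) and without its replicate 2 array (limma adjusted p = 0.0176), which changes only the shared estimate of spread. So did hoxb7.S. The count of Hox genes higher was then 5, where 3.22% and 3.26% of all probe sets were called higher.

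Paralog groups 3 to 13 moved less and less evenly. Of the 10 central genes, paralog 4 to 8, signals of 9 were higher on both wnt3a arrays than on both chordin arrays, with a median log2 change of 2.38. Of the 10 posterior genes, paralog 9 to 13, this held for 3, with a median of 1.08. Over all 25 genes it held for 17 and the reverse for 0, where 21.5% and 21.1% of all probe sets did so. The median log2 change of the 25 genes was 2.07, beside 0.00 for all 32539 probe sets. The medians within replicate numbers were 2.85 for replicate 1 and 1.05 for replicate 2. On the wnt3a arrays of replicate 1 and 2, 9 and 6 of the central genes lay above background, and 7 and 2 of the posterior genes. The counts and medians here thus rest in part on signals below background.

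Against uninjected caps, chordin with wnt3a left hoxb2.S at least 64.4-fold higher and hoxa2.L at least 15.2-fold higher. The signals of hoxa2.S were 11.1 and 30.3 in uninjected caps, and its log2 change was 4.71 ± 0.50 (limma adjusted p = 0.0016). The fourth gene called higher was hoxb4.S, at least 5.08-fold (log2 change 3.16 ± 0.88, limma adjusted p = 0.0328). It lost the call without either array of the uninjected, chordin or wnt3a groups, with adjusted p up to 0.151. Hoxa11.S, at 7.05 and 11.4 with wnt3a, was at least 2.95-fold lower than in uninjected caps (log2 change -2.55 ± 0.54, limma adjusted p = 0.0133). Signals of 10 of the 25 Hox genes were higher on both wnt3a arrays than on both uninjected arrays and those of 4 were lower, where 33.1% and 27.4% of all probe sets did so. The call of hoxa11.S too was lost without any 1 of the 4 arrays compared, with adjusted p from 0.0502 to 0.0849. In this comparison 19.0% of all probe sets were called higher and 14.7% lower. Without either morpholino array 7 Hox genes were called higher, with hoxb6.S, hoxb7.S and hoxb9 added. Of all 22000 probe sets 4051 were called higher without its replicate 1 array and 4072 without its replicate 2 array.

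**Figure D2:**
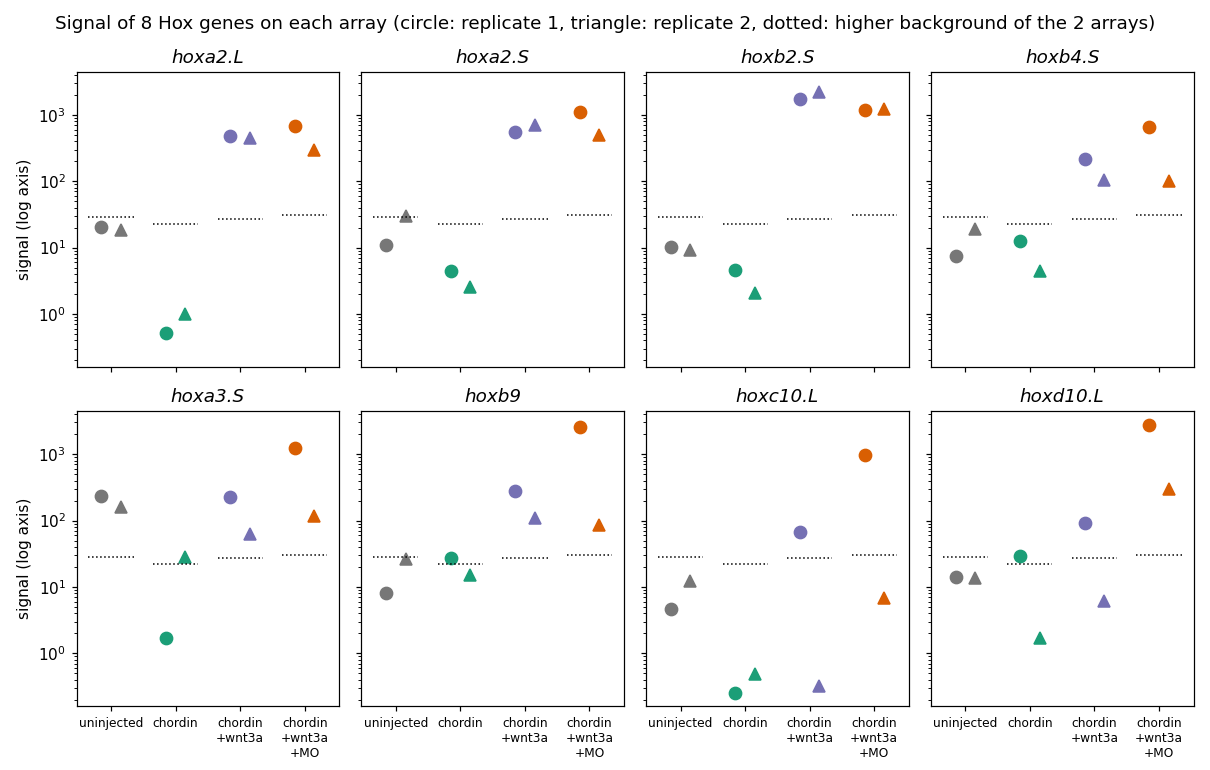
Signal (log axis) of 8 Hox genes on each array, with circles for replicate 1, triangles for replicate 2 and dotted lines for the higher background of a group's 2 arrays. The upper panels hold paralogs 2 and 4, which are above background on all 4 wnt3a arrays. The lower panels hold hoxa3.S, hoxb9, hoxc10.L and hoxd10.L, whose 2 morpholino arrays lie far apart. Those of hoxb4.S, in the upper panels, also lie apart, at 660 and 102.

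The third comparison asks what the morpholino changed in caps that already had chordin and wnt3a. The paralog group 2 genes stayed high. Hoxd10.L, a posterior gene that in the mouse acts in the lumbar spinal cord and hindlimb, was higher on both morpholino arrays. Most Hox genes of higher paralog number were brighter on the replicate 1 array of the morpholino group than on its replicate 2 array, and none of those tested was called without a block.

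With the morpholino the signals of hoxa2.L were 683 and 293, those of hoxa2.S 1117 and 502, and those of hoxb2.S 1176 and 1224. The 2 copies of hoxa2 overlapped with the caps that had no morpholino, at log2 changes of -0.04 ± 0.41 and 0.26 ± 0.50 (limma adjusted p = 0.965 and 0.801). Hoxb2.S was lower on both morpholino arrays than on both arrays without it, with a log2 change of -0.71 ± 0.26 that did not pass (limma adjusted p = 0.159). Scaled to the spike-in controls its change was -1.67 (limma adjusted p = 0.0232). That scaling moved the median of all tested probe sets from 0.03 to -0.89, so relative to other genes the difference was about as large as before. A p that misses the threshold does not show that the group 2 genes were the same with and without the morpholino.

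The signals of hoxd10.L were 14.3 and 13.5 in uninjected caps, 29.4 and 1.71 with chordin, 92.3 and 6.16 with chordin and wnt3a, and 2781 and 301 with the morpholino. Both morpholino values were above all 6 others. The replicate 1 array was the brighter of the pair with and without the morpholino. Within replicate 1 the log2 change was 4.84. Within replicate 2 the array without morpholino was below its background, and the change was at least 3.25, with 4.75 from the values as deposited. The mean change of 4.79 ± 1.39 did not pass in the fit without a block (limma adjusted p = 0.0965) and passed with the replicate number as a block (limma adjusted p = 0.0210). It was 3.20 without the morpholino array of replicate 1.

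Among the 17 tested Hox genes 0 were called in either direction by limma, where 2.73% of all probe sets were called higher and 2.16% lower. At an unadjusted p below 0.05 there were 2 higher (hoxd10.L and hoxa11.S) and 1 lower (hoxb2.S), beside 12.6% and 11.2% of all tested probe sets. With the block 1 was called, hoxd10.L, and 7.61% of all probe sets were called higher. Signals of 4 of the 25 genes were higher on both morpholino arrays (hoxb5.S, hoxd10.L, hoxa11.S and hoxc12.L) and that of 1 was lower, where 26.5% and 21.2% of all probe sets did so. Of the 4, hoxb5.S was at background throughout. Hoxa11.S had 77.0 and 29.2 with the morpholino, at least 1.88-fold higher than without it (log2 change 1.90 ± 0.54, limma adjusted p = 0.0908).

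The replicate numbers gave different pictures of the whole gene family. In replicate 1 the morpholino array was above its partner without morpholino for 23 of 25 Hox genes, with a median log2 difference of 2.47. In replicate 2 this held for 12 of 25, with a median of -0.04. The medians over all tested probe sets were 0.01 and 0.03. Many of the signals compared were below background, and with every signal raised to the background of its array the Hox medians were 2.33 and -0.04. The 2 morpholino arrays thus differed from each other in the Hox genes of higher paralog number.

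**Figure D3:**
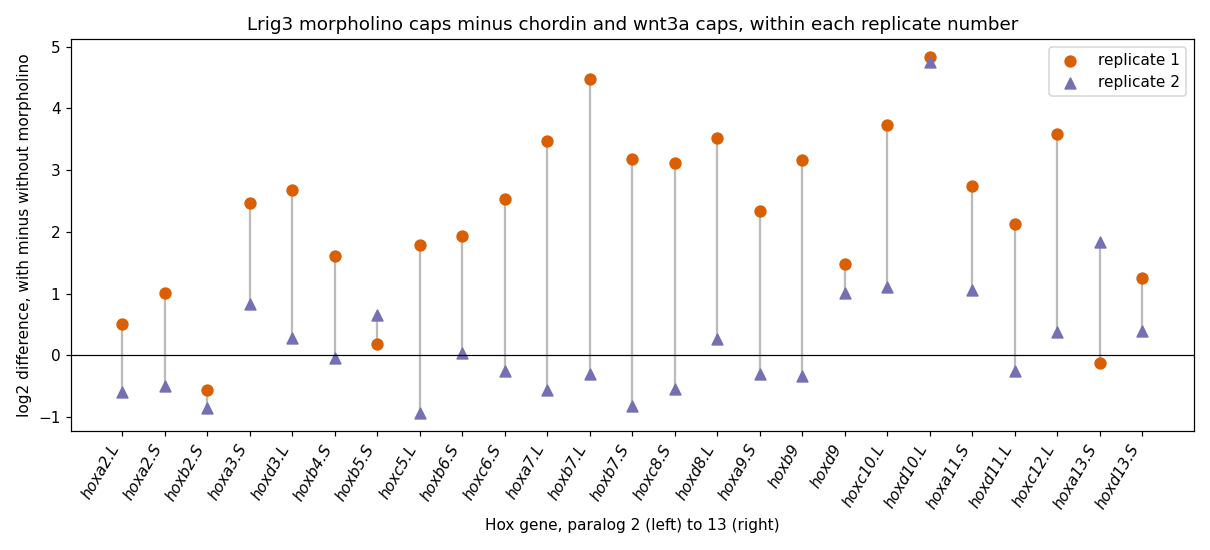
Difference in log2(signal + 5.22) between caps with and without the morpholino, for each of the 25 Hox genes from paralog 2 (left) to 13 (right), with circles for replicate 1 and triangles for replicate 2, joined by a line. Replicate 1 lies above 0 for 23 genes and replicate 2 for 12, and hoxd10.L has the highest replicate 2 value, 4.75, which rests on a signal below background.

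Of the 25 Hox genes 19 were at least 4-fold brighter on replicate 1 than on replicate 2 in the morpholino group, and 0 the other way, where 1.36% of all probe sets were so. With signals raised to background, an alternative chosen after seeing the data, the numbers were again 19 and 0, and 0.842% of all probe sets. All 19 belonged to paralog groups 3 to 13, which hold 22 of the genes. The paralog group 2 genes had ratios of 2.31 (hoxa2.L), 2.21 (hoxa2.S) and 0.961 (hoxb2.S). The 3 genes of groups 3 to 13 outside the 19 were hoxb5.S and hoxa13.S, which were at background, and hoxa11.S, with a ratio of 2.39. Ratios are of signal + 5.22 here and below.

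The genes with the largest ratios were named after their values were seen, and where the second signal was below background the ratio is a lower bound. Hoxa7.L had signals of 3159 and 26.4 on the 2 morpholino arrays, a ratio of 100.2. Hoxc8.S had 1706 and 10.1, a ratio of at least 54.6, and hoxc10.L had 955 and 6.73, a ratio of at least 30.6. In the mouse the c8 and a7 genes act at thoracic and brachial levels and c10 at lumbar levels. Hoxc6.S (1501 and 24.2), hoxb7.L (1183 and 18.7) and hoxc5.L (1067 and 17.9) had ratios of at least 48.1, 37.9 and 34.2. On the second array 5 of the 6 genes were below its background of 26.1 and hoxa7.L was just above it.

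Hoxb9, a spinal cord gene in Xenopus, showed the same split from a higher base. Its signals were 8.20 and 26.4 in uninjected caps, 27.6 and 15.4 with chordin, 278 and 110 with wnt3a, and 2524 and 86.1 with the morpholino. Both wnt3a arrays and both morpholino arrays were above background. Hoxb4.S was at 660 and 102 with the morpholino and hoxa3.S at 1254 and 115. For these 3 genes the second morpholino array lay within or near the range of the 2 arrays without morpholino, and the first lay above it.

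The same split was present, and smaller, in caps with chordin and wnt3a alone. There 8 of the 25 Hox genes were at least 4-fold brighter on replicate 1, where 1.63% of all probe sets were so, and 0 were brighter by that factor on replicate 2. With signals raised to background there were 4 (hoxc5.L, hoxc6.S, hoxa7.L and hoxc8.S), where 0.879% of all probe sets were so. Hoxc10.L was at 66.8 and 0.327, hoxc8.S at 191 and 17.3, and hoxa7.L at 279 and 41.3. In chordin caps 1 gene, hoxd10.L, was at least 4-fold brighter on replicate 1 (0.501% of all probe sets) and 1, hoxa3.S, on replicate 2. In uninjected caps 0 were brighter on replicate 1 (0.642%). With signals raised to background there were 0 in chordin caps in either direction.

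The log2 ratios of replicate 1 to 2 in the wnt3a caps and in the morpholino caps correlated across the 25 genes (Pearson r = 0.71, Spearman rho = 0.71). For the 22 genes of groups 3 to 13 the values were 0.63 and 0.64. With signals raised to background the 25 genes gave 0.80 and 0.76. This is a description across genes that share the same 4 arrays, and genes are not independent replicates. The summed signal of the 22 genes was 743 and 651 in uninjected caps, 260 and 196 with chordin, 2436 and 620 with wnt3a, and 19461 and 943 with the morpholino. The replicate 1 morpholino array held the highest signal of the 8 arrays for 21 of the 25 Hox genes and for 18.4% of all probe sets.

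Further probe sets of the same genes were read as a check on single probe sets. Of 13 that were not the brightest of their gene, 12 were brighter on replicate 1 than on replicate 2 of the morpholino group, 8 of them at least 4-fold. Of all 32539 probe sets 15811 were brighter on replicate 1, and 1.36% were so at least 4-fold. Among the 13, 3 were at or below background on every array. A probe set annotated only as xhoxc8, outside the symbol rule, had signals of 99.4 and 19.0 with wnt3a and 519 and 2.07 with the morpholino. The split was thus not limited to the brightest probe sets.

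Probe sets of genes that are neighbours in the RefSeq table did not all give like signals. The table places hoxb4.S, hoxb5.S, hoxb6.S and hoxb7.S next to each other. On the replicate 1 morpholino array their signals were 660, 10.1, 378 and 607, and on the replicate 2 array 102, 14.9, 31.6 and 31.2. The probe set for hoxb5.S was at background on both while those of its neighbours were above it. It was at or below background on all 8 arrays. Whether the gene stayed low or the probe set does not detect it cannot be told. A further probe set of hoxb5.S had 21.6 and 2.32, also below background. Hoxd10.L and hoxd11.L are also neighbours. The signals of hoxd11.L, 192 and 5.60 with the morpholino, were above background on replicate 1 only, whereas hoxd10.L was above it on both.

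Against chordin caps the morpholino group had 6 of the 17 tested Hox genes called higher and 0 lower, where 6.12% of all probe sets were called higher and 5.26% lower. They were hoxb2.S (at least 44.9-fold, log2 change 7.15 ± 0.26), hoxa2.S (at least 28.1-fold, 6.44 ± 0.50), hoxa2.L (at least 16.9-fold, 6.25 ± 0.41), hoxb4.S, hoxd10.L and hoxa11.S. Hoxb4.S was at least 9.96-fold higher (log2 change 4.36 ± 0.88, limma adjusted p = 0.0271). Hoxd10.L had a log2 change of 5.90 ± 1.39 (limma adjusted p = 0.0424, and adjusted p = 0.00909 with the block). Hoxa11.S was at least 1.98-fold higher (log2 change 2.96 ± 0.54, limma adjusted p = 0.0202).

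These counts depended on which morpholino array was used. Without replicate 1 the paralog group 2 genes were the 3 called higher, where 1.89% of all probe sets were. Hoxd10.L then had a log2 change of 4.31 (limma adjusted p = 0.154) and hoxb4.S of 3.04 (limma adjusted p = 0.0751). Without replicate 2, 16 of the 17 were called higher, all but hoxd13.S, where 3.41% of all probe sets were. Leaving out either chordin array also left 3. In both of these fits a lone array is assumed to vary like the other groups. Over the 25 genes the median log2 change was 5.63 within replicate 1 and 1.42 within replicate 2.

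The morpholino result against wnt3a caps moved in the same way. Without the replicate 1 morpholino array 0 of all 22000 probe sets were called by limma, with 4035 at an unadjusted p below 0.05. Without the replicate 2 array 1 Hox gene was called higher, hoxb7.S, where 1.01% of all probe sets were.

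Part of a list of Cdx genes and posteriorising signals, 30 of which were on the array, showed a like split. In the morpholino group 13 of the 30 were at least 4-fold brighter on replicate 1. Others were not, such as wnt8a.L at 4612 and 4777. Cdx1.S had signals of 966 and 11.9 with wnt3a and 5363 and 17.1 with the morpholino. Both replicate 2 signals were below background, as were those of the other 4 samples. Cdx4.L had 1068 and 169 with wnt3a and 5425 and 300.2 with the morpholino. For both of these genes the replicate 1 array was the brighter. Cdx genes encode homeodomain factors that activate trunk Hox genes, but their part in the Hox signals here was not tested. Against chordin caps cdx4.L was at least 48.0-fold higher with the morpholino (log2 change 6.56 ± 1.43, limma adjusted p = 0.0341). With wnt3a alone its change of 4.98 ± 1.43 did not pass without the block (limma adjusted p = 0.113) and passed with it (limma adjusted p = 0.0357).

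Of the 22 list genes tested, 12 rose, wnt3a.S itself among them, and 1 fell when wnt3a was added, with a median log2 change of 3.88. Of all probe sets 3.08% rose and 2.74% fell. The largest rises after wnt3a.S were those of wnt8a.L, a mesodermal Wnt ligand, at 8.12 ± 0.51, and of sp5.L and tshz1.L. With the morpholino 1 rose and 1 fell, where 2.73% and 2.16% of all probe sets did. Fgf8.L, a growth factor of the posterior axis and the hindbrain boundary, rose by 3.07 ± 0.61 (limma adjusted p = 0.0430), and sp5.L fell. The gene that had fallen with wnt3a was fgf8.L too. Its signals were 2497 and 2113 with chordin, 193 and 122 with wnt3a, and 2608 and 678 with the morpholino. The rise was thus from a level that wnt3a had lowered, and the second morpholino array stayed below both chordin arrays. In the morpholino group 13 of the 30 list genes were at least 4-fold brighter on replicate 1, and in the wnt3a group 7 were. The shares of all probe sets were 1.36% and 1.63% in the same order.

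Mesoderm and muscle markers moved with the same array. Of 29 such genes on the array 15 were at least 4-fold brighter on replicate 1 than on replicate 2 of the morpholino group, and 2 the other way. The shares of all probe sets were 1.36% and 1.63%. In the wnt3a group 3 of the 29 were so on replicate 1 and 0 on replicate 2. The early mesoderm gene tbxt.L had signals of 110 and 6.87 with wnt3a and 1835 and 10.5 with the morpholino. The muscle actin gene actc1.L had 59.2 and 24.3, then 1709 and 32.4. The myogenic factor gene myf5.L had 49.0 and 9.91, then 636 and 1.65. All 3 were at or below background on the second morpholino array or, for actc1.L, just above it.

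The summed signal of the 29 genes was 8342 and 7244 in uninjected caps, 1688 and 3012 with chordin, 5022 and 6066 with wnt3a, and 17493 and 7856 with the morpholino. The number above background was 5 and 10, 13 and 16, 18 and 9, and 21 and 14 in the same order. The list shares tbxt, msgn1, tbx6 and wnt8a with the Cdx list, and szl accounts for much of the uninjected sum. The somite gene mespa.L and the muscle gene actn2.L were at background on all 8 arrays. Of the 16 genes tested 0 were called in either direction with the morpholino, where 2.73% of all probe sets were called higher and 2.16% lower. The part of mesoderm or muscle cells in the Hox signals of the replicate 1 arrays was not tested.

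**Figure D4:**
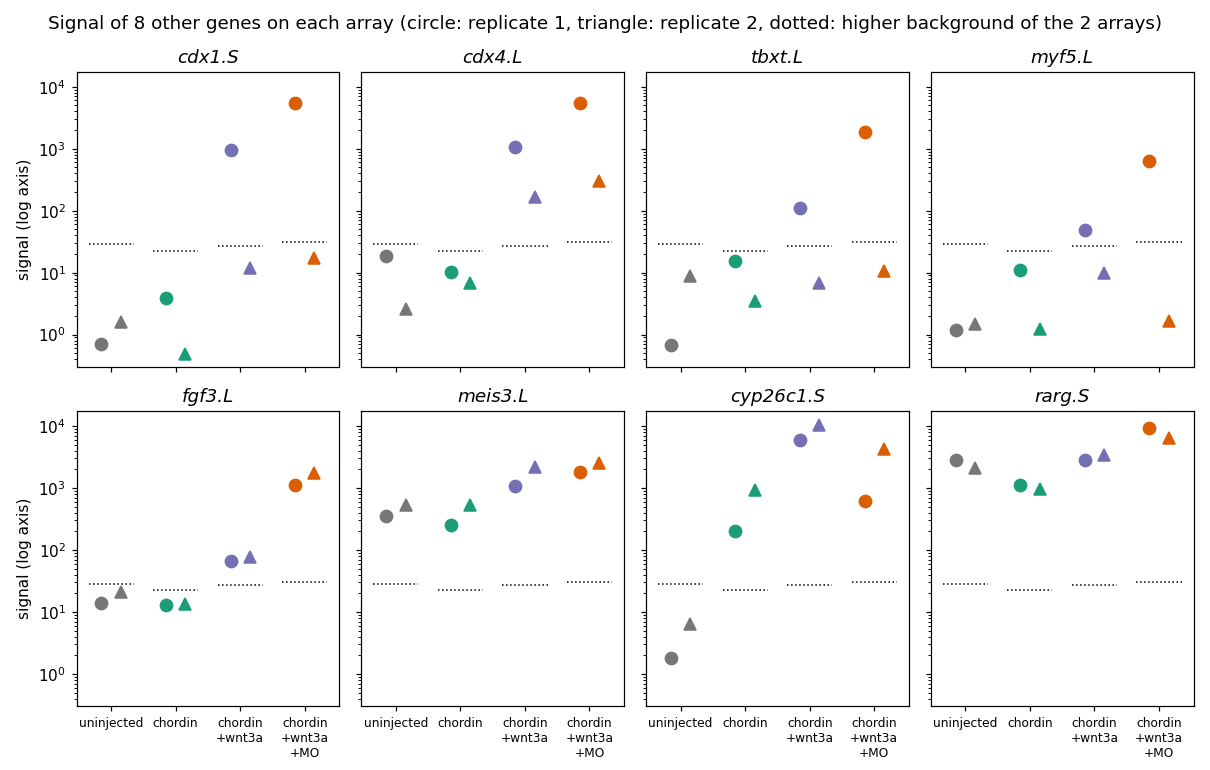
Signal (log axis) of 8 other genes on each array, with circles for replicate 1, triangles for replicate 2 and dotted lines for the higher background of a group's 2 arrays. For cdx1.S, cdx4.L and tbxt.L (upper panels) replicate 1 lies far above replicate 2 in both groups with wnt3a. Myf5.L (upper panels) shows this with the morpholino, and without it lies at 49.0 and 9.91, the second below background. In the lower panels fgf3.L, meis3.L and rarg.S do not show this and cyp26c1.S is brighter on replicate 2.

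Hindbrain segment regulators outside the Hox family did not show the split at 4-fold. In the morpholino group 0 of 18 were at least 4-fold brighter on replicate 1, where 1.36% of all probe sets were so. On the replicate 1 and 2 arrays of that group 13 and 12 of the 18 lay above background. Genes at background on both could not show a split. Fgf3.L, a growth factor of the hindbrain, had signals of 13.0 and 13.6 with chordin, 66.3 and 78.1 with wnt3a, and 1121 and 1755 with the morpholino. It rose with wnt3a by 2.06 ± 0.32 (limma adjusted p = 0.0148), on both arrays. Both chordin signals were below background, so the size of this rise rests on them. Fgf3.L rose again with the morpholino by 4.19 ± 0.32 (limma adjusted p = 0.00699), on both arrays. Of the 13 list genes tested 5 rose and 3 fell with wnt3a, where 3.08% and 2.74% of all probe sets did. With the morpholino 3 rose and 0 fell, where 2.73% and 2.16% of all probe sets did. The others that rose with the morpholino were pax2.L and irx1.S, by 2.39 ± 0.51 and 1.42 ± 0.24. Pax2.L was among the 3 that fell with wnt3a. Its signals were 414 and 635 with chordin, 22.8 and 69.7 with wnt3a, and 229 and 243 with the morpholino. Without the replicate 1 morpholino array 0 of the list were called, as were 0 of all probe sets.

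Meis3.L, a Hox cofactor gene that in Xenopus takes part in hindbrain formation, had signals of 252 and 536 with chordin, 1087 and 2157 with wnt3a, and 1837 and 2559 with the morpholino. Its change with wnt3a of 2.04 ± 0.46 did not pass without the block (limma adjusted p = 0.0537) and passed with it (limma adjusted p = 0.00243). That of meis3.S was 2.42 ± 0.63 (limma adjusted p = 0.0853 without it, limma adjusted p = 0.00434 with it). Of the 6 cofactor genes tested 0 were called with wnt3a or with the morpholino without the block. Of all probe sets 3.08% were called higher and 2.74% lower with wnt3a, and 2.73% and 2.16% with the morpholino. Beside such shares 0 of 6 genes does not set the cofactors apart. The share called higher with the morpholino against chordin caps was 6.12%. Against chordin caps both meis3 copies were called higher with the morpholino, and 0 cofactor genes were without either morpholino array.

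Retinoic acid signalling sets Hox boundaries in the hindbrain. Of 15 such genes tested 2 rose with wnt3a, where 3.08% of all probe sets did, namely cyp26a1.L, which encodes an enzyme that degrades retinoic acid (2.73 ± 0.41, limma adjusted p = 0.0120), and the receptor gene rarg.S (1.57 ± 0.23, limma adjusted p = 0.0106). With the morpholino 2 rose, where 2.73% of all probe sets did, namely rarg.S (1.31 ± 0.23, limma adjusted p = 0.0316) and dhrs3.L (1.49 ± 0.30, limma adjusted p = 0.0441), which encodes a retinal reductase. Both signals of rarg.S with the morpholino, 9156 and 6380, were above all others of this gene. In the morpholino group 0 of 20 list genes were at least 4-fold brighter on replicate 1 and 2 were on replicate 2.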

How the data were processed

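RNA of 8 animal cap samples was measured, 1 array per sample and 2 per group. The deposited values are signal intensity values on a linear scale, and the MAS5 algorithm is named per the submitters' processing notes. The 2% trimmed mean of each array rounds to 500, and this scaling was kept. Biotinylated aRNA was made from total RNA, per the labels' protocols. The series text mentions both RNA extraction at the time of cutting and culture to stage 15, and the later stage is used.

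Manufacturer controls (96 probe sets) did not enter the tests. The scale used was log2(signal + 5.22), the 10th percentile of all signals being the pseudocount. The filter kept the 22000 of 32539 probe sets whose signals passed the 40th percentile of the array on 2 arrays or more. All 8 arrays entered a single fit of group means with limma 3.58.1 in R 4.3.3 (lmFit, then eBayes with its trend and robust options), with 4 residual degrees of freedom. The fitting step was tested on simulated data. Whether replicates came from separate batches of embryos is not stated, so p-values cover the spread of these samples alone, and that spread may be technical. The number of arrays limits the precision, and 0.333 is the smallest p an exact permutation test can give here.

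Same-numbered arrays deviated together (correlations of the replicate 1 minus 2 differences of 0.172 to 0.505 in all 6 pairs of groups), so replicate numbers were taken to pair the arrays. Fits with the number as a block are given where they change a call. The files hold no detection calls. A dim group is one with neither array above the background set from negative controls. A fold against it is a lower bound ("at least"), with each dim signal raised to its array's background before log2 means were compared, and where both groups were dim no fold is printed.

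A single symbol was given for 15495 probe sets, of which 15384 matched the RefSeq table of the Xenopus_laevis_v10.1 assembly by Entrez number. That table was used for names and neighbours only. It places the Entrez gene of hoxa11.S on the long subgenome, against its suffix, and hoxb9 and hoxd9 had no match in it. The Hox genes, gene lists and tests were chosen with earlier results of these data known. Every called Hox gene and hoxa2.L, hoxb2.S and hoxd10.L are given on every array, the other Hox genes by range and count or as examples. From other lists at most 4 called genes per comparison and 4 uncalled ones are named. Alternatives were other pseudocounts, no filter, quantile and spike-in scaling, eBayes without trend and robust, the replicate block, and each array left out in turn. A further alternative took the probe set with the highest single signal of each gene. It changed only the probe set of hoxb5.S, which was not tested, so its values could not differ. The counts of kept values given below include uncalled values that stayed uncalled. Replicate ratios were also computed with signals raised to background, chosen after seeing the data.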

Additional observations from a re-analysis of the deposited data

How the results depend on the processing

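Over 35 pairs of a Hox gene and a comparison, the alternatives gave 560 values, of which 505 kept direction and side of the threshold, 33 lost the call, 13 gained it and 9 changed sign. The count of Hox genes lower with chordin was 4 with a pseudocount of 1 and 1 with a pseudocount of 50, and 1 to 4 with an array left out. Leaving out an array gave 3 to 5 genes higher with wnt3a against chordin, 3 to 7 higher and 0 to 1 lower with wnt3a against uninjected caps, 3 to 16 higher with the morpholino against chordin, and 0 to 1 higher with the morpholino against wnt3a. With the replicate block 1 was higher in that last comparison, hoxd10.L, and beside hoxb2.S in chordin against uninjected caps the block changed no other call of these 35. It raised the calls over all probe sets in the morpholino comparison from 601 higher and 476 lower to 1675 and 1614.

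Scaling to the spike-in controls left 1 Hox gene lower with the morpholino against wnt3a (hoxb2.S). Its split over all probe sets was 6071 higher and 721 lower for chordin against uninjected caps (3866 and 2579 as deposited), 145 and 5173 for the morpholino against wnt3a (601 and 476), 6812 and 1081 for wnt3a against uninjected caps (4172 and 3242), and 405 and 6150 for the morpholino against chordin (1346 and 1158). The cause was not tested.

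The sign changes were of values that were not called. With an array left out, the change of hoxa2.L for the morpholino against wnt3a ran from -0.65 to 0.56 and was 0.00283 without wnt3a replicate 1. That of hoxc10.L for wnt3a against chordin ran from -0.0118 to 3.69. Those of hoxd10.L ran from -1.47 to 0.86 for chordin against uninjected caps, from -0.44 to 2.66 for wnt3a against chordin (-0.05 without chordin replicate 2) and from -0.75 to 2.35 for wnt3a against uninjected caps. For chordin against uninjected caps hoxd10.L was also at 0.00375 with a pseudocount of 50 and at 0.11 with spike-in scaling. The call of hoxd10.L with the morpholino against chordin had limma adjusted p of 0.0520 with a pseudocount of 1, 0.0637 without the filter, 0.0761 with spike-in scaling, 0.0529 without trend and robust, and up to 0.210 with an array left out.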
